A study of Mus musculus with 9 samples.

Results

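The enzymes described here attach glutathione, glucuronic acid or sulfate to reactive compounds, reduce aldehydes and ketones, or open epoxides. They were taken as the genes named by a probe set whose only gene symbol belongs to the glutathione transferases (Gst of the alpha, mu, kappa, omega, pi and theta classes), the microsomal glutathione transferases (Mgst), the glucuronosyltransferases (Ugt), the sulfotransferases (Sult), the aldo-keto reductases (Akr) or the epoxide hydrolases (Ephx). This gave 64 of the 19933 genes on the array, with the probe set of highest mean kept where a gene had more than 1. The samples were mouse yolk sacs, taken at embryonic day 9.5 on a mixed SV 129/C57BL/6 background, untreated, that were wild type (Rnh1+/+, WT), heterozygous (Rnh1+/-, HET) or knockout (Rnh1-/-, KO) for Rnh1, the gene of the ribonuclease inhibitor. Each genotype had 3 samples on 1 Affymetrix gene array each, and values are log2 signals, so that a difference of 1 is a doubling. The labels say neither which part of Rnh1 was removed, nor whether a sample was 1 yolk sac or a pool, nor that replicates were separate animals, so the p-values here reflect only the variation among these arrays, which may be technical. The comparisons asked how these enzyme genes differed when 1 or both copies of Rnh1 were missing.

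Conjugation makes small lipophilic or reactive molecules water-soluble, so that transporters can carry them out of the cell. Glutathione transferases join them to glutathione, glucuronosyltransferases use UDP-glucuronic acid and sulfotransferases use the sulfate donor PAPS, while aldo-keto reductases and epoxide hydrolases remove reactive carbonyl and epoxide groups without a conjugate. In the adult these genes are best known from liver and intestine. In the yolk sac the visceral endoderm, the absorptive outer layer, shares many genes with fetal liver. NRF2 (gene Nfe2l2) and the aryl hydrocarbon receptor (gene Ahr) are the textbook regulators of many of them, through the antioxidant response element and the xenobiotic response element.

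The promoters of a few of the enzymes that were lower in KO are printed because these elements have known core letters. The RefSeq promoter table (GRCm38.p6, from 250 bases before to 50 after each start site) held 59 of the 64 genes, and 12 of the 14 that were lower in KO than in WT or HET. The letters TGACNNNGC, the core of the antioxidant response element, were searched on both strands, as were GCGTG, the core of the xenobiotic response element, and a consensus site of HNF1, a transcription factor of liver and visceral endoderm. Capitals mark the match, and each sequence runs 5′ to 3′ along the gene's strand.
Akr1c19 (chr13:4233490-4233789, plus strand): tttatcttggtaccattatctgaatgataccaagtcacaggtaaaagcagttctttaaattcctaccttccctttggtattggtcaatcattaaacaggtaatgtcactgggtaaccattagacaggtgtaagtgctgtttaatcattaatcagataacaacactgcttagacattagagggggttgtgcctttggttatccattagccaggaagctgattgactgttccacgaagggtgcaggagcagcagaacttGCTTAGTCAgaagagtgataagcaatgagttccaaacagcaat
Gsta3 (chr1:21240335-21240634, plus strand): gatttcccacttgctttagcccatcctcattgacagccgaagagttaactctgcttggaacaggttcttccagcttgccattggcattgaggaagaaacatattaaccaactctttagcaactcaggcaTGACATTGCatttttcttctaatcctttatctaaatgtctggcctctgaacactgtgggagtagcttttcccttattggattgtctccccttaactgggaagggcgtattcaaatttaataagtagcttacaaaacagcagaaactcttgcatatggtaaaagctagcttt
Mgst3 (chr1:167393792-167394091, minus strand): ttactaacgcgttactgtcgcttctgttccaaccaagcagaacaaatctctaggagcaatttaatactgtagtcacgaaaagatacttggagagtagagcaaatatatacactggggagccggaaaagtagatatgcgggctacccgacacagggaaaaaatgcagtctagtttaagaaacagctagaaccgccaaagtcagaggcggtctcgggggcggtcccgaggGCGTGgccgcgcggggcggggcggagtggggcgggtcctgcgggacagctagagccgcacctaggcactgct
Gstm1 (chr3:108017924-108018223, minus strand): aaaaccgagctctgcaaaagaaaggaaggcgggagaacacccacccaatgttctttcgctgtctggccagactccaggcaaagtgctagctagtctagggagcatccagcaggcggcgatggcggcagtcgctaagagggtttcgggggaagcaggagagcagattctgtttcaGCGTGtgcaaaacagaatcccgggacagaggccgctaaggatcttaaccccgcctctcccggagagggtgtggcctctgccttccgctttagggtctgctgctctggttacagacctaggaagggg
In Akr1c19 the match to TGACNNNGC lay on the opposite strand, reading TGACTAAGC, and began 8 bases into the transcribed part. In Gsta3 it read TGACATTGC and began 121 bases before the start site. Neither held the AP-1 letters TGACTCA. The match to GCGTG began 22 bases before the start in Mgst3 and 76 before it in Gstm1, and was also present in Akr1b8 and Gstp1. Only promoters with a match were printed. Those of Gstm2, Gstm3, Gstm4, Gstk1, Gstt3 and Ugt2b34 held neither. Among the printed genes Gsta3 was lower in KO against HET only. The promoters of Gstm1 overlap and hold the same GCGTG, which is thus counted more than once below. By gene, GCGTG was in 4 of 12 enzymes lower in KO than in WT or HET, against 5737 of 10532 genes tested. Among promoters of enzymes that were lower in KO than in WT or HET, 2 of 15 (13.3%) held TGACNNNGC and 5 of 15 (33.3%) held GCGTG, a gene with several start sites counting more than once. Among the promoters of all genes tested the shares were 13.9% and 48.9% of 13357, against 12.4% and 32.4% of all 32851 promoters. The HNF1 consensus was in 0 of the 71 promoters of these enzymes and in 0 of the 13357. These are matches of letters in a window of 300 bases and were not tested as sites.

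Of the 64 genes, 27 (42.2%) exceeded the 40th percentile of the array's signals on 3 or more of the 9 arrays and were tested, against 66.3% of all genes. The families differed in this respect. Of the glutathione transferases 15 of 18 were tested, of the microsomal ones 2 of 3, of the aldo-keto reductases 6 of 15, of the epoxide hydrolases 1 of 4, of the sulfotransferases 2 of 16 and of the glucuronosyltransferases 1 of 8. Of the 37 genes left out as dim, 36 were below that level on every array. They included Mgst1 and Ephx1, both abundant enzymes of adult liver, with Mgst1 between 5.40 and 5.58 and Ephx1 between 5.44 and 5.98. Among the tested genes, 24 were above the level on all 9 arrays. The exceptions were Gsta3 and Sult2b1, above it on 7 arrays each, and Mgst2 on 6.

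The labelled genotypes and tissue were checked first. Rnh1 averaged 10.38 ± 0.05 over the WT arrays, 9.75 ± 0.01 over HET and 6.64 ± 0.32 over KO (log2 signal, SD, n = 3), with 6.28, 6.78 and 6.87 on the single KO arrays. All 29 visceral endoderm markers with a probe set passed the filter, and the yolk sac serum proteins Afp and Apoa1 lay above 12.6 on every array. Array medians ran from 7.07 to 7.20. Xist was high (10.56 and above) on 2 WT, 1 HET and 3 KO arrays, and the Y-linked Eif2s3y was low (4.34 and 4.41) on WT 3 and KO 3 only. Both were high on WT 2, HET 2, KO 1 and KO 2, so these arrays held female and male transcripts together. Whether those samples held more than 1 yolk sac was not tested. The sex of the tissue was not balanced over the genotypes, and its part in the results below was not tested.

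In KO against WT, 12 of the 27 tested enzymes were lower and 0 were higher (limma, Benjamini-Hochberg adjusted p under 0.05 over 13207 genes), and 15 did not pass. At an unadjusted p under 0.05, 18 were lower and 0 higher, against 23.4% and 14.7% of all genes. At the adjusted threshold, of all genes tested, 15.2% were lower and 8.27% higher, and after centring the arrays on their medians 19.1% were lower and 4.37% higher. Of the enzymes 26 of 27 lay below 0, against 50.9% of all genes, and their median log2 difference was -0.38 against -0.0046 for all genes. The largest falls were in Akr1c19, a hydroxysteroid dehydrogenase of the aldo-keto reductases, and Ephx2, the soluble epoxide hydrolase, which opens the epoxides of fatty acids. Without WT 2 the number lower was 7, without WT 1 or KO 3 it was 8, and without KO 1 it was 17. The share of all genes was not counted with an array left out.

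**Figure D1:**
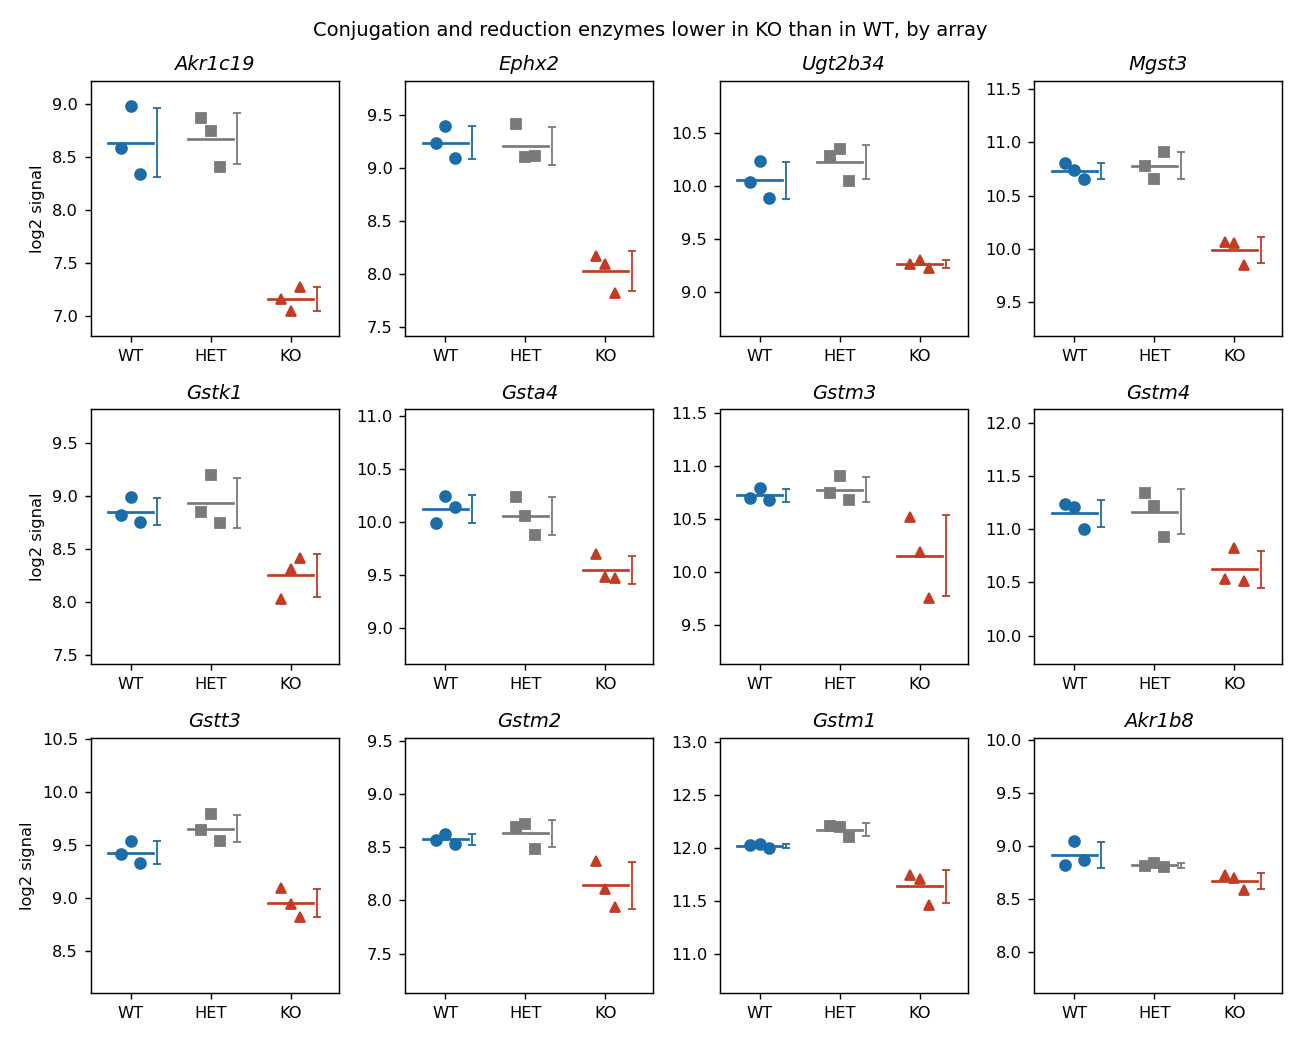
Log2 signal of the 12 enzymes that were lower in KO than in WT, 1 point per array, with the genotype mean as a horizontal line and the SD (n = 3) as a bar beside it; each panel spans the same range of 2.4 log2 units. In every panel the 3 KO arrays lie below the 3 WT arrays, from a small gap in Akr1b8 (8.73 against 8.82) to a wide one in Akr1c19 (7.28 against 8.34).

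Among the aldo-keto reductases 2 of 6 tested genes fell, 0 rose and 4 did not pass. Akr1c19 measured 8.59, 8.98 and 8.34 (WT arrays), 8.87, 8.74 and 8.41 (HET arrays) and 7.16, 7.05 and 7.28 (KO arrays). The KO arrays lay more than a full log2 unit below every WT and HET array. The difference from WT was -1.47 ± 0.17 (SE, adjusted p = 0.00132), which leaves 36.1% of the WT level. Akr1b8, an aldose reductase-like enzyme, measured 8.82, 9.05 and 8.87 (WT arrays), 8.81, 8.85 and 8.80 (HET arrays) and 8.73, 8.71 and 8.59 (KO arrays). Its fall of 0.24 ± 0.07 (adjusted p = 0.0425) was kept only when KO 1 was the array left out (otherwise adjusted p from 0.0541 to 0.131). It was also lost with no filter, with array weights, with only KO and WT fitted and without WT 2 and KO 1 together (0.0595 to 0.0948). The difference of Akr1e1 was -0.51 ± 0.18, short of the threshold (adjusted p = 0.0762). Without KO 1, where it was at 8.45 against 7.88 and 8.04 on the other KO arrays, Akr1e1 passed (adjusted p = 0.0257). Akr1a1, the general aldehyde reductase, differed by -0.02 ± 0.05, with 12.04 to 12.09 in WT and 12.03 to 12.06 in KO. Akr7a5 (-0.12) and Akr1b10 (-0.09) did not pass either, so the family held both the largest and the smallest difference of all 27 enzymes.

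Akr1c19 lies in a row of 9 neighbouring enzyme genes on chromosome 13, of which only Akr1c19 and Akr1e1 were tested. Akr1c12, which follows Akr1c19 in that row, was above the filter on 2 arrays. Akr1c12 measured 6.11, 6.79 and 6.17 (WT arrays), 6.52, 6.10 and 5.99 (HET arrays) and 5.23, 5.12 and 5.01 (KO arrays). When no filter was used, Akr1c12 stood at -1.23 ± 0.19 in KO against WT (limma adjusted p = 0.00448), with KO values below the filter level. Without the filter 2 of the 37 dim enzymes were lower in KO than in WT and 0 were higher, against 8.3% and 4.48% of all genes. The other was Ugt2b36 (-0.47, adjusted p = 0.0439). Members of the Akr1c group have similar sequences, and how far their probe sets share signal was not examined.

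Ephx2 was the only epoxide hydrolase tested, and it fell. It measured 9.23, 9.40 and 9.09 (WT arrays), 9.42, 9.10 and 9.11 (HET arrays) and 8.17, 8.10 and 7.82 (KO arrays). The KO values lay well below every other array. The difference from WT was -1.21 ± 0.12 (limma adjusted p = 0.00116), or 43.3% of the WT level. Ephx1, Ephx3 and Ephx4 were dim on all 9 arrays.

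Ugt2b34 was the only glucuronosyltransferase with a probe set of its own that was tested. It measured 10.04, 10.23 and 9.89 (WT arrays), 10.28, 10.35 and 10.04 (HET arrays) and 9.26, 9.30 and 9.22 (KO arrays). The KO arrays were close together and lay below all others. The difference from WT was -0.79 ± 0.10 (limma adjusted p = 0.0019), which leaves 57.8% of the WT level. Its 7 neighbours in the row of Ugt2 genes on chromosome 5 were all dim.

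Of the microsomal glutathione transferases Mgst3 fell and Mgst2 did not pass. Mgst3, a membrane enzyme that also reduces lipid peroxides, measured 10.80, 10.74 and 10.65 (WT arrays), 10.78, 10.65 and 10.91 (HET arrays) and 10.06, 10.05 and 9.85 (KO arrays). The KO arrays lay below those of both other genotypes, and Mgst3 differed from WT by -0.75 ± 0.09 (limma adjusted p = 0.00152), or 59.6% of the WT level. Mgst2, which is also a leukotriene C synthase, stood at -0.39 ± 0.16 (adjusted p = 0.101). Its KO values of 6.46, 6.52 and 6.12 lay below the WT values of 6.63, 7.09 and 6.56, at the level of the filter.

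The soluble glutathione transferases held most of the tested enzymes. Of 15, 7 fell, 0 rose and 8 did not pass, with all 15 below 0, a median of -0.38 and a range from -0.60 to -0.07. By class, 1 of 2 alpha, 4 of 7 mu, 1 of 3 theta and the 1 kappa enzyme fell, and the 1 pi and 1 omega enzyme did not pass. None of these 15 fell by as much as Mgst3, Ugt2b34, Ephx2 or Akr1c19. This ranking leaves out probe sets that name several genes. Those naming Gsta1 with Gsta2, described at the end, fell by more than Mgst3 and Ugt2b34 (from -1.72 to -0.86).

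Gstk1, the kappa enzyme of mitochondria and peroxisomes, measured 8.82, 8.99 and 8.75 (WT arrays), 8.85, 9.20 and 8.75 (HET arrays) and 8.03, 8.31 and 8.42 (KO arrays). It differed from WT by -0.60 ± 0.14 (limma adjusted p = 0.0143), and leaving out WT 2 alone (adjusted p = 0.0536) or WT 2 with KO 1 (0.0728) ended the call. KO 1 was the lowest array for this gene, whereas KO 1 was the highest KO array for most of the class mu enzymes. Gsta4, which conjugates aldehydes from lipid peroxidation, measured 9.99, 10.25 and 10.14 (WT arrays), 10.24, 10.06 and 9.88 (HET arrays) and 9.70, 9.48 and 9.47 (KO arrays). Its difference of -0.58 ± 0.11 (limma adjusted p = 0.00729) passed with every single array left out. Gsta3, the other alpha enzyme, measured 6.73, 7.04 and 6.68 (WT arrays), 7.18, 6.75 and 6.76 (HET arrays) and 6.68, 6.06 and 6.23 (KO arrays). The highest KO and the lowest WT value of Gsta3 were equal to 2 decimals, and at -0.50 ± 0.18 it did not pass (adjusted p = 0.0722), and it did without KO 1 (adjusted p = 0.0166).

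The 7 class mu genes stand next to each other on chromosome 3, in the order Gstm5, Gstm7, Gstm6, Gstm3, Gstm2, Gstm1 and Gstm4, with no other protein-coding gene between them in the RefSeq annotation of GRCm38.p6. The 4 that fell were the last 4 of this row, and the first 3 did not pass. This grouping was seen in the values and was not tested. For Gstm3 it rests on the probe set of higher mean, and where either of its probe sets lies in the genome was not examined. Gstm1 measured 12.02 ± 0.02 (WT, SD, n = 3), 12.21, 12.20 and 12.10 (HET arrays) and 11.75, 11.71 and 11.46 (KO arrays). HET lay above WT and KO below it, with no overlap among the 3 genotypes, and KO differed from WT by -0.38 ± 0.08 (limma adjusted p = 0.01). Gstm4 measured 11.24, 11.21 and 11.00 (WT arrays), 11.34, 11.22 and 10.93 (HET arrays) and 10.53, 10.82 and 10.51 (KO arrays), a difference of -0.53 ± 0.13 (adjusted p = 0.017). Gstm2 measured 8.57, 8.63 and 8.53 (WT arrays), 8.69, 8.72 and 8.48 (HET arrays) and 8.38, 8.11 and 7.94 (KO arrays), a difference of -0.43 ± 0.11 (adjusted p = 0.0215). In each of these the KO arrays lay below the WT and HET arrays. Gstm3 measured 10.70, 10.80 and 10.68 (WT arrays), 10.74, 10.91 and 10.68 (HET arrays) and 10.52, 10.19 and 9.76 (KO arrays), a difference of -0.57 ± 0.16 (adjusted p = 0.0345). Its second probe set gave -0.36, and the mean of the 2 probe sets did not pass.

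The calls of the class mu genes rested in part on single arrays. Gstm1 passed with every single array left out (adjusted p of at most 0.041). Gstm2 was lost without WT 1, WT 2, KO 2 or KO 3 (adjusted p from 0.0558 to 0.0703), and Gstm3 without any WT array, HET 1, KO 2 or KO 3 (from 0.0525 to 0.101) or with only KO and WT fitted (0.0758). Gstm4 was lost without WT 1, WT 2 or KO 3 (from 0.0528 to 0.0649) and without WT 2 and KO 1 together (0.0862). Gstm6 measured 7.67, 8.06 and 7.74 (WT arrays), 7.80, 7.92 and 7.61 (HET arrays) and 8.10, 7.34 and 6.95 (KO arrays). Its KO arrays thus spanned more than 1 log2 unit, with KO 1 above every WT array, and at -0.36 ± 0.25 it did not pass (adjusted p = 0.321). Gstm5 (-0.34, adjusted p = 0.0745) and Gstm7 (-0.11, adjusted p = 0.324) did not pass. The mu genes are close paralogs, and whether their probe sets share signal was not examined, so their values may not be independent.

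Of the class theta genes, which also stand in 1 row on chromosome 10, Gstt3 fell. It measured 9.42, 9.54 and 9.33 (WT arrays), 9.64, 9.79 and 9.53 (HET arrays) and 9.09, 8.95 and 8.82 (KO arrays), a difference from WT of -0.48 ± 0.09 (limma adjusted p = 0.00873). Gstt2 was the enzyme closest to the threshold without passing (-0.35 ± 0.11, adjusted p = 0.0526), and Akr1b8 the closest inside it. Gstt1 stood at -0.07 ± 0.12, with KO values of 8.54, 8.51 and 8.05 around a WT mean of 8.44. Gsto1, the omega enzyme, differed by -0.15 ± 0.09 (adjusted p = 0.266). Gstp1, the pi enzyme, differed by -0.08 ± 0.06 (adjusted p = 0.405).

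Of the 16 sulfotransferases 14 were dim, and neither of the 2 tested passed. Sult5a1 stood at -0.24 ± 0.10 (limma adjusted p = 0.106), and without KO 1, its highest KO array, it passed (adjusted p = 0.0352). Sult2b1, which sulfates cholesterol, stood at 0.09 ± 0.06 (adjusted p = 0.326), from 6.38 to 6.54 in WT and from 6.57 to 6.58 in KO, and was the only tested enzyme above 0. Both groups of Sult2b1 values lay near the filter.

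**Figure D2:**
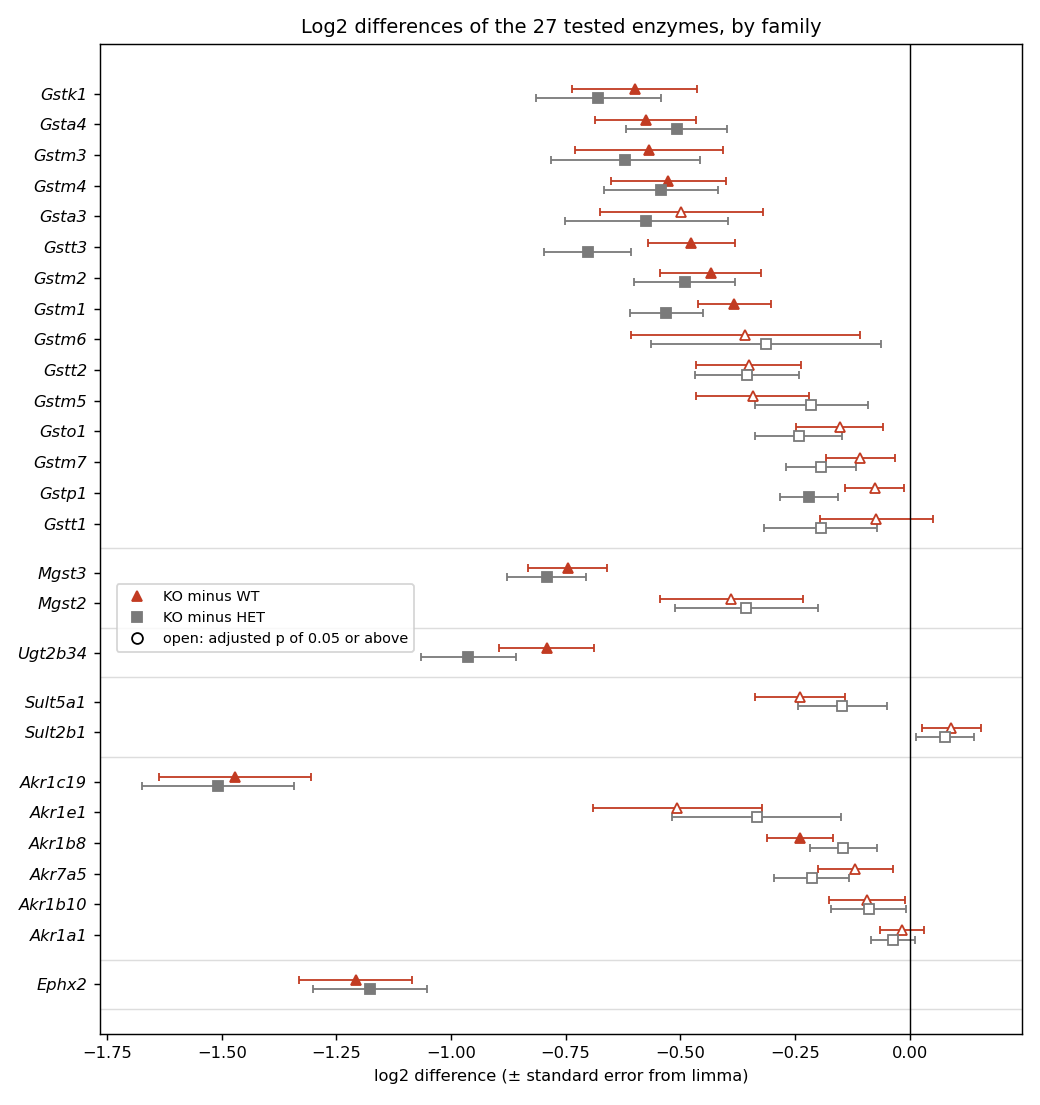
Log2 difference of each of the 27 tested enzymes, KO minus WT (red triangles) and KO minus HET (grey squares), with the standard error from limma and families separated by lines; open symbols did not reach an adjusted p under 0.05. Akr1c19 (-1.47 and -1.51) and Ephx2 (-1.21 and -1.18) lie farthest from 0, and only Sult2b1 lies above 0.

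The family medians for KO against WT were -0.38 for Gst (15 genes), -0.57 for Mgst (2 genes), -0.18 for Akr (6 genes) and -0.07 for Sult (2 genes), with -0.79 for the 1 Ugt gene and -1.21 for the 1 Ephx gene. These are descriptions and families were not tested against each other, since most hold 1 or 2 tested genes. In 15 of the 27 enzymes all KO arrays lay below all WT arrays, and in 1 above, against 24.7% and 15.8% of all genes. Averaged over the 27 enzymes, the WT arrays measured 9.18, 9.33 and 9.12, the HET arrays 9.30, 9.28 and 9.14, and the KO arrays 8.91, 8.79 and 8.67. WT 2 was thus the highest WT array and KO 1 the highest KO array.

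HET against WT asked whether the loss of 1 copy moved the same genes. In this comparison 0 of 27 enzymes and 0.0% of all genes passed by limma at an adjusted p under 0.05. Rnh1 itself, with 1 copy missing, did not pass either (-0.62 ± 0.13, limma adjusted p = 0.939). Its HET arrays (9.75 to 9.77) nevertheless lay below its WT arrays (10.32 to 10.42). The 0 therefore cannot be read as an absence of change. At an unadjusted p under 0.05 there were 327 genes (1.6% lower and 0.878% higher of all tested), among them 1 enzyme, Gstt3, which was higher. The median of the enzymes was 0.04, and 9 of 27 lay below 0, against 50.9% of all genes. With arrays centred on their medians the median turned to -0.0041, and 14 of 27 lay below 0, against 67.5% of all genes. Above 0 the smallest unadjusted p belonged to Gstt3 (0.23 ± 0.09, limma adjusted p = 0.939), Gstp1 (0.14 ± 0.06) and Gstm1 (0.15 ± 0.08). Below 0 they belonged to Akr1b8 (-0.09 ± 0.07), Gstm5 (-0.13 ± 0.12) and Sult5a1 (-0.09 ± 0.10). Of the 15 soluble glutathione transferases 12 lay above 0 (10 with arrays centred), and in 2 of them, Gstm1 and Gstp1, all HET arrays lay above all WT arrays, against 4.25% of all genes.

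KO against HET asked what the loss of the remaining copy added. It shares the KO arrays with KO against WT and so is no independent count. Here 13 of 27 enzymes were lower, 0 were higher and 14 did not pass, against 13.6% lower and 8.17% higher of all genes, and 13.0% and 5.29% with arrays centred on their medians. In 19 enzymes all KO arrays lay below all HET arrays and in 1 above, against 21.4% and 15.7% of all genes. At an unadjusted p under 0.05, 18 enzymes were lower and 0 higher, against 20.4% and 14.7% of all genes. Akr1c19 stood at -1.51 ± 0.17 (limma adjusted p = 0.000968), Ephx2 at -1.18 ± 0.12 and Ugt2b34 at -0.96 ± 0.10. Mgst3 followed at -0.79 ± 0.09, Gstt3 at -0.70 ± 0.09 and Gstk1 at -0.68 ± 0.14. The remaining falls were Gstm3 (-0.62), Gsta3 (-0.57), Gstm4 (-0.54), Gstm1 (-0.53), Gsta4 (-0.51), Gstm2 (-0.49) and Gstp1, the last named after its value was seen. Gstp1 measured 11.06, 10.97 and 10.98 (WT arrays), 11.15, 11.15 and 11.13 (HET arrays) and 10.88, 11.04 and 10.85 (KO arrays), and KO differed from HET by -0.22 ± 0.06 (limma adjusted p = 0.0382). On this probe set the KO and WT values of Gstp1 overlapped while the HET values lay above all others. Both probe sets naming Gstp1 with Gstp2, fitted apart, had overlapping HET and WT values. They did not pass in KO against HET (-0.20 each, limma adjusted p = 0.0915 and 0.139). Whether the Gstp1 call held with an array left out was not examined. Akr1b8 did not pass here (-0.14, adjusted p = 0.193), so that the Gst family had 9 of 15 lower and the Akr family 1 of 6.

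Gsta3 kept its call in KO against HET only when WT 2 or KO 1 was the array left out (otherwise adjusted p from 0.0615 to 0.157). With all arrays Gsta3 also lost it with no filter, after quantile normalization or cyclic loess, and with only 2 genotypes fitted (0.0622 to 0.0823). Gstm2, Gstm3 and Gstm4 lost theirs without HET 1 or HET 2, and Gstm3 also without KO 2 (adjusted p from 0.0568 to 0.0926 for the 3 genes) and with 2 genotypes fitted (0.0603). The number lower was 8 without HET 1 or HET 2 and 14 without KO 1 or WT 2. With no filter, Akr1c18 stood higher in KO than in HET by 0.87 ± 0.23 (limma adjusted p = 0.037), the only enzyme found higher in KO under any setting tried, where 7.55% of all genes were lower and 4.22% higher. It encodes a progesterone-degrading reductase, known from ovary and placenta. Akr1c18 measured 6.07, 6.01 and 5.14 (WT arrays), 5.12, 4.79 and 5.26 (HET arrays) and 5.84, 5.87 and 6.06 (KO arrays), all below the filter level of their arrays. The WT values of Akr1c18 overlapped those of both other genotypes.

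The other genes of the pathway were counted from lists of known function. Counts and differences are for KO against WT unless KO against HET is named. For each list the share to compare is that of all genes tested, 15.2% lower and 8.27% higher in KO against WT. In KO against HET it is 13.6% lower and 8.17% higher. Some genes, such as Gclc and Abcc4, are in more than 1 list, so the counts are not separate. In KO against WT, of 8 tested genes of conjugation cofactor supply 4 fell, 0 rose and 4 did not pass. They were the PAPS synthases Papss1 (-0.51 ± 0.06, limma adjusted p = 0.00171) and Papss2 (-0.61 ± 0.14), the sulfate transporter Slc26a1 (-0.69 ± 0.12) and the phosphatase Bpnt1 (-0.30 ± 0.08), which clears the by-product of sulfation. Bpnt1 lost its call without WT 1 or WT 2 (adjusted p from 0.0696 to 0.0957). In KO against HET Bpnt1 did not pass (limma adjusted p = 0.0508), and 3 of the list fell. The median of this list in KO against WT was -0.29.

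Of 16 genes of glutathione synthesis and recycling 5 (31.2%) fell and 0 rose, against 15.2% of all genes lower, with a median of -0.16. Gclc, the catalytic subunit of the rate-limiting enzyme, measured 10.93, 10.94 and 10.96 (WT arrays), 10.91, 10.86 and 10.94 (HET arrays) and 10.54, 10.56 and 10.53 (KO arrays). The replicates of Gclc were close and the KO arrays clearly below, with a difference of -0.39 ± 0.05 (limma adjusted p = 0.00177). Gss, which completes glutathione, averaged 10.02 ± 0.13 over WT and 9.28 ± 0.12 over KO (SD, n = 3), a difference of -0.74 ± 0.09 (adjusted p = 0.00166). The peptidases Dpep1 (-0.36 ± 0.07) and Anpep (-0.42 ± 0.11), which break down glutathione conjugates at the cell surface, passed as well. Anpep lost its call without WT 2, KO 2 or KO 3 (adjusted p from 0.0646 to 0.0671). The number that fell was 3 without WT 2, KO 2 or KO 3 and 8 without KO 1, where 1 rose.

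Of 11 export pumps 7 (63.6%) fell and 0 rose, against 15.2% of all genes lower, with a median of -0.55. Slc47a1, an exporter of organic cations, fell by 1.58 ± 0.13 (limma adjusted p = 0.00102), and the conjugate pumps Abcc2 (-0.64 ± 0.09) and Abcc4 (-0.55 ± 0.08) and the pump Abcg2 (-0.66 ± 0.11) fell too. The number that fell was 4 without WT 2, and 1 rose without KO 1. In KO against HET 6 fell and 1 rose, against 13.6% lower and 8.17% higher of all genes. There 0 rose without HET 1 or HET 3. Of 8 other conjugating and reducing enzymes 5 fell and 0 rose in KO against WT, with a median of -0.33. The flavin monooxygenase Fmo1 measured 12.11, 12.39 and 12.09 (WT arrays), 12.33, 12.25 and 12.10 (HET arrays) and 10.70, 11.03 and 11.01 (KO arrays), a fall of 1.28 ± 0.12 (adjusted p = 0.00102). The quinone reductase Nqo2 (-0.84 ± 0.13), the thiopurine methyltransferase Tpmt (-0.59 ± 0.12) and the carbonyl reductase Cbr4 (-0.42 ± 0.09) fell as well. Cbr4 did not pass without WT 2 and KO 1 together (adjusted p = 0.0625).

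Of 8 tested genes of the cytochrome P450 list 1 (12.5%) fell and 0 rose, near the 15.2% of all genes that were lower, while 12 others with a probe set were dim. Cyp2s1 fell by 0.76 ± 0.09 (limma adjusted p = 0.00162), and Cyp2c37 (0.19 ± 0.08), Cyb5a (-0.14 ± 0.07) and Cyb5r3 (-0.08 ± 0.07) did not pass. The median was -0.07. Of 6 sulfatases and glucuronidases 2 fell and 0 rose, with a median of -0.14: the sulfatase Arsk (-0.53 ± 0.12) and its activator Sumf1 (-0.41 ± 0.10). Sumf1 did not pass when WT 1 was left out (adjusted p = 0.059), and 3 of the list fell without KO 1, where 1 rose. Gusb, the lysosomal beta-glucuronidase, stood at 0.21 ± 0.07 (adjusted p = 0.0644), and passed without KO 1 (adjusted p = 0.0346). Sumf2 stood at -0.10 ± 0.06. In KO against HET 0 of this list fell and 1 rose, against 13.6% lower and 8.17% higher of all genes. There Arsk and Sumf1 did not pass (limma adjusted p = 0.0719 and 0.0612), and Gusb did (0.24, adjusted p = 0.0467). With 1 array left out, 1 rose only without KO 1, and 1 fell without HET 2 or KO 1.

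Of 18 regulators 4 (22.2%) fell and 0 rose, against 15.2% of all genes lower, and the median was 0.0029. The number that fell was 2 without any WT array, KO 2 or KO 3. Ahr measured 8.74, 8.85 and 8.60 (WT arrays), 8.91, 8.67 and 8.69 (HET arrays) and 8.24, 8.09 and 8.14 (KO arrays), a fall of 0.57 ± 0.09 (limma adjusted p = 0.00326). The bile acid receptor gene Nr1h4 fell by 0.78 ± 0.18 (adjusted p = 0.0153), and did not pass when WT 2 and KO 1 were both left out (adjusted p = 0.0503). Nfe2l2 (-0.24 ± 0.07, adjusted p = 0.0341) and Arnt (-0.20 ± 0.06, adjusted p = 0.0431) passed with all arrays. Nfe2l2 lost its call when WT 1, WT 2, WT 3, HET 1, KO 2 or KO 3 was left out (0.0503 to 0.107). Arnt kept its call only when KO 1 was the array left out (otherwise 0.0569 to 0.127). It did not pass in KO against HET (limma adjusted p = 0.191). Of 17 NRF2 target genes outside the enzyme families 5 fell and 0 rose, with a median of -0.17, among them Gclc, Abcc4, the isocitrate dehydrogenase Idh1 (-0.59 ± 0.12) and the biliverdin reductase Blvrb (-0.66 ± 0.16). Blvrb, which red cells also express strongly, lost its call without WT 1, KO 2 or KO 3 (adjusted p from 0.0548 to 0.0661). The number of NRF2 targets that fell was 3 without WT 1 or KO 2, and 8 without KO 1, where 1 rose. In KO against HET 5 of these 17 fell and 1 rose, against 13.6% lower and 8.17% higher of all genes. There 0 rose without HET 1 or HET 3.

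**Figure D3:**
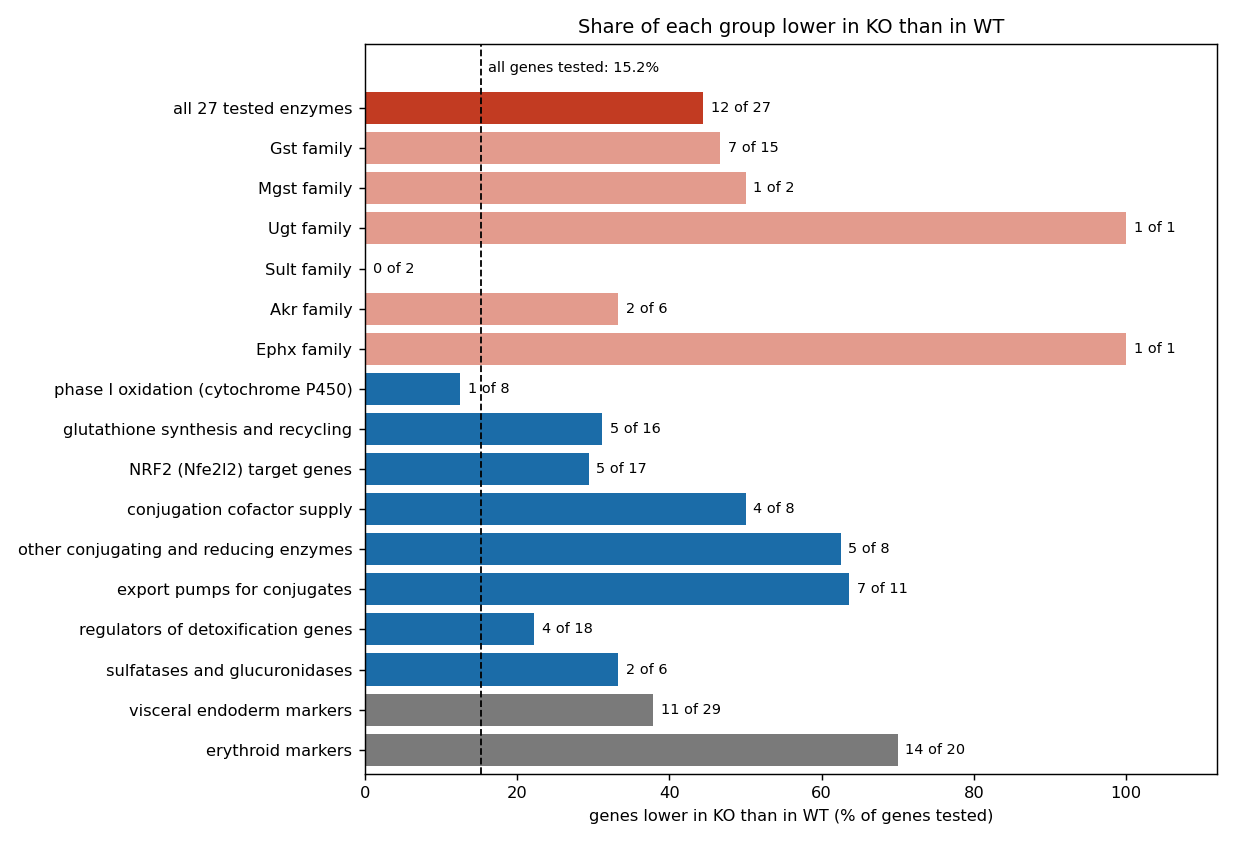
Share of the tested genes of each group that were lower in KO than in WT (limma adjusted p under 0.05), with the counts beside the bars: all 27 enzymes, their families (light red), the pathway lists (blue) and 2 marker lists (grey); the dashed line is the 15.2% of all genes tested. The share was 44.4% for the enzymes, and the Ugt and Ephx bars rest on 1 gene each.

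Markers of the cell types of the yolk sac moved with the genotype as well. The share to set beside the marker counts, here and for adjacent tissue below, is 15.2% lower and 8.27% higher of all genes tested. In bulk tissue, fewer cells of a type and less RNA per cell cannot be told apart. Of 29 visceral endoderm markers 11 fell and 1 rose in KO against WT, with a median of -0.17, and 0 rose when any array other than KO 3 was left out, with arrays centred or with no filter. The log2 of their summed signal was 16.79 to 16.88 in WT, 16.76 to 16.90 in HET and 16.43 to 16.61 in KO. Afp fell by 0.33 ± 0.06 (limma adjusted p = 0.00814) and Apoa1 stood at -0.08 ± 0.06. Of 20 erythroid markers 14 fell and 0 rose, with summed signals of 15.56 to 15.68 in WT, 15.50 to 15.70 in HET and 15.16 to 15.47 in KO. The number of erythroid markers that fell was 7 without WT 1, WT 3 or KO 2. Macrophage markers, 7 of 14 of them dim, had 3 of 7 lower and none higher by the same test (12.52 to 12.65 in WT, 12.15 to 12.53 in KO), and 1 lower without WT 2. Of 16 endothelial markers 2 fell and 4 rose, with summed signals of 13.51 to 13.59 in WT and 13.57 to 13.60 in KO, and 2 rose without any array other than KO 1 or KO 3. Of 16 markers of extraembryonic mesoderm 1 fell and 5 rose (14.66 to 14.73 in WT and 14.73 to 14.82 in KO), and 3 rose without WT 1.

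Tissue that lies next to the yolk sac differed between arrays rather than only between genotypes. Of 12 parietal endoderm markers 3 fell in KO against WT, and their summed signal was 14.46, 13.89 and 14.84 on the WT arrays against 13.80 to 13.90 in HET and 13.84 to 13.86 in KO. Leaving out WT 2 gave 11 lower, and leaving out WT 1 or KO 2 gave 1. The trophoblast list, with 9 of 20 genes dim, had 0 of 11 genes past the test in either direction and a summed signal of 11.98 to 12.33 in WT and 11.88, 12.60 and 13.38 on KO 1, KO 2 and KO 3. Without KO 1, 4 of its genes were higher. Tpbpa, a marker of spongiotrophoblast, was above the filter on KO 3 only (7.84). Maternal decidua markers, 4 of 14 of them dim, had 1 of 10 lower and 1 higher (12.18 to 12.60 in WT and 12.17 to 12.65 in KO). The 1 higher was Hand2 (0.45 ± 0.06, limma adjusted p = 0.00171). It is also in the list of extraembryonic mesoderm and was counted there too. Embryo markers, 9 of 13 of them dim, had 1 of 4 higher and 0 lower (9.27 to 9.58 in WT and 9.66 to 9.94 in KO). The part of these differences in the enzyme results was not tested.

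**Figure D4:**
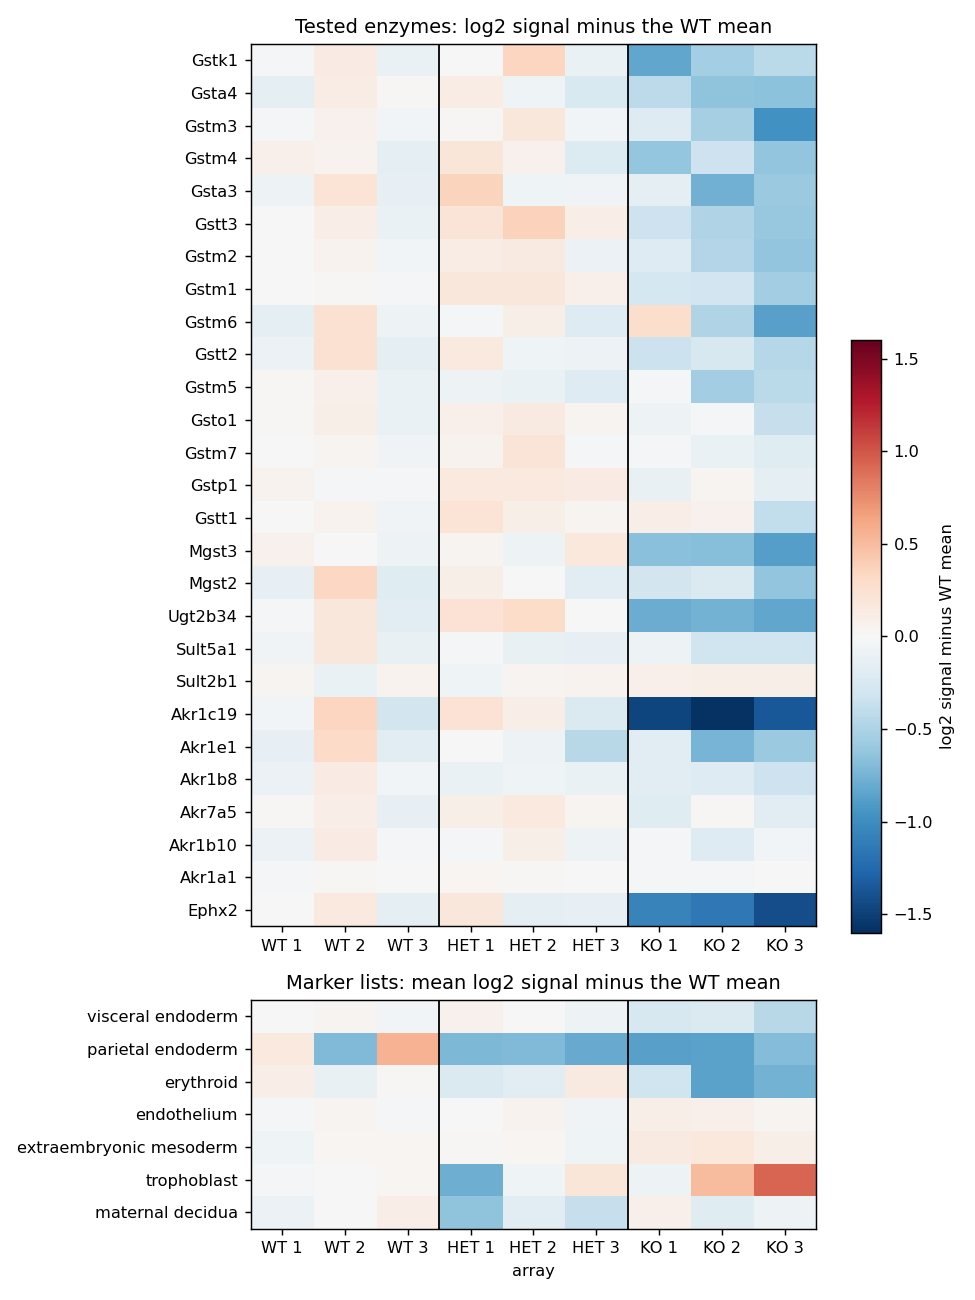
Log2 signal of the 27 tested enzymes (top, ordered by family and difference) and mean log2 signal of 7 marker lists (bottom) on each array, minus the mean of the WT arrays; blue is lower and red is higher. Akr1c19 and Ephx2 are the darkest rows on all 3 KO arrays, Gstm6 is higher on KO 1 than in WT, and the trophoblast row rises on KO 2 and KO 3.

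The genes whose pattern over the 9 arrays was most like that of Akr1c19 were Mtmr7 (Pearson r = 0.997), Abat (0.996), Nipsnap2 (0.996), Psmd5 (0.995) and Auh (0.994). Those most like Gsta4 were Slc9a7 (r = 0.992), Tex2 (0.985), 1700019D03Rik (0.984), Tmem59 (0.983) and Alg5 (0.981). These correlations are descriptions over 9 arrays that share the difference between KO and the other genotypes.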

How the data were processed

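The deposited table holds RMA values on the log2 scale. The submitters' processing notes name Affymetrix Expression Console 1.2.1.20 as the authors' software, and 100 ng of total RNA entered each labelling, per the labels' protocols. A genome build was not given in the sources used here. Of 28350 deposited probe sets, 21780 named 1 gene symbol, 1618 several and 4952 none, and those naming 1 symbol were used. Their Entrez numbers were found in the reference gene table for 21689 and changed 0 symbols. Genes above the 40th percentile of their array on at least 3 of 9 arrays were tested (13207 of 19933). Limma 3.58.1 in R 4.3.3 fitted all 9 arrays in 1 model by genotype with default empirical Bayes moderation, after a test on simulated data, and p-values were adjusted by Benjamini-Hochberg over all genes tested. For arrays, their number limits the precision.

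The enzyme genes, the lists and the array pair WT 2 and KO 1 left out together were chosen with earlier results of these data known. The rule for named genes took the 12 largest falls and rises that passed in each comparison with KO, the 3 smallest p per direction where none passed, the 3 smallest p per family and the 4 smallest p per pathway list. Alternatives changed the filter (none, or the array median), averaged the probe sets of a gene, rescaled the arrays (median centring, quantile, cyclic loess), used array weights or a prior that was robust and trended, fitted 2 genotypes only, took the replicate number as a block, or left out each array.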

Additional observations from a re-analysis of the deposited data

How the results depend on the processing

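In KO against WT the number of enzymes lower was 12 and ranged from 7 (without WT 2) to 17 (without KO 1) when 1 array was left out; in KO against HET it was 13 and ranged from 8 (without HET 1 or HET 2) to 14. Under the alternatives that kept all arrays it was 10 to 15 and 11 to 16, and without WT 2 and KO 1 together 14 and 17, and 0 were higher, except for 1 higher in KO against HET with no filter on dim genes. In HET against WT 0 enzymes passed under any setting tried. The share of all genes lower was not counted with an array left out. Whether these ranges are particular to the enzymes was thus not tested. The number of erythroid markers lower in KO than in WT ranged from 7 to 18 and was also highest without KO 1. Akr1c19, Ephx2, Mgst3, Ugt2b34, Gstt3, Gsta4 and Gstm1 passed in both comparisons with KO under every setting. Without any filter the medians also take in the 37 dim genes, by construction, and stood in KO against WT at -0.10 for all enzymes, -0.39 for Mgst, -0.10 for Ugt and -0.0725 for Ephx, and in KO against HET at -0.18 for all enzymes, -0.33 for Gst, -0.36 for Mgst, -0.20 for Ugt and -0.0546 for Ephx. With the filter at the array median, which drops Gsta3, Mgst2 and Sult2b1, the Mgst median was -0.75 against WT and -0.79 against HET, and the Sult median -0.24 and -0.15. The Sult median against WT was -0.14 with arrays centred on their medians, -0.12 after quantile normalization and -0.13 with cyclic loess. The median of all enzymes in KO against HET was -0.49 with array weights and -0.50 without WT 2 and KO 1. The causes of these shifts in scaling and weights were not tested. Akr1b8 in HET against WT turned from -0.09 to 0.0009 with array weights and passed in neither.

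With 1 array left out, the median of all enzymes ran from -0.48 to -0.29 in KO against WT, from 0.01 to 0.10 in HET against WT and from -0.50 to -0.29 in KO against HET. For the families, given for KO against WT and then KO against HET, it ran from -0.49 to -0.30 and from -0.57 to -0.39 for Gst, from -0.64 to -0.47 and from -0.63 to -0.48 for Mgst, from -0.87 to -0.70 and from -1.05 to -0.90 for Ugt, from -0.11 to -0.05 and from -0.07 to -0.01 for Sult, from -0.22 to -0.12 and from -0.20 to -0.15 for Akr, and from -1.28 to -1.10 and from -1.25 to -1.07 for Ephx.

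The labels do not say whether samples with the same replicate number were paired, and 9 arrays are too few to settle it. The deviations of same-numbered arrays correlated from -0.26 to 0.42, over 0.1 in 5 of 9 pairs. Of the 9 arrays, 4 correlated best with an array of their own number. With the replicate number as a block, 14 enzymes were lower in KO against WT and 15 in KO against HET. A further limit is signal: 36 of the 64 genes were below the filter on every array, and without the filter 2 of them, Ugt2b36 and Akr1c18, passed in a comparison with KO.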

Other observations

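Enzymes that the array names only together with close relatives also differed between the genotypes. They were fitted apart, among the 857 tested probe sets that name several genes, of which 3.5% were lower in KO than in WT by limma (adjusted p under 0.05). All 4 probe sets naming Gsta1 and Gsta2, the class alpha glutathione transferases best known from liver and intestine, with the predicted genes Gm10639 and Gm3776, were lower in KO. The one with the largest difference averaged 7.73 ± 0.17 over the WT arrays, 7.66 ± 0.16 over HET and 6.01 ± 0.08 over KO (SD, n = 3), the KO values lying below the filter level. It differed from WT by -1.72 ± 0.11 (limma adjusted p = 1.511e-04) and from HET by -1.66 ± 0.11. The other 3 differed from WT by -1.52 ± 0.11, -1.01 ± 0.11 and -0.86 ± 0.10. The 4 probe sets name the same genes and so are not separate measurements of different genes.

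The probe set that names 8 Ugt1a genes together, the glucuronosyltransferases that share their last exons and include the bilirubin enzyme Ugt1a1, was lower in KO by 0.83 ± 0.10 (limma adjusted p = 0.00139), averaging 8.11 ± 0.16 over WT, 8.12 ± 0.13 over HET and 7.28 ± 0.09 over KO. In HET against WT neither this nor the first Gsta probe set passed (0.01 ± 0.10 and -0.07 ± 0.11, limma adjusted p = 0.958 and 0.781). Both probe sets naming Gstp1 with Gstp2 stood at -0.13 against WT and -0.20 against HET and passed in neither.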
